A study of Mus musculus with 12 samples.

Results

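The caveolins and cavins were followed through 4 genotypes of the organ of Corti of the mouse, the strip of cochlear epithelium that holds the hair cells. The set has 7 genes, chosen by name, although earlier results of these data were known: Cav1, Cav2, Cavin1, Cavin2, Cavin3, Ehd2 and Pacsin2. All 7 were among the 55348 genes counted and among the 19052 genes with enough counts to be tested. RNA was taken at postnatal day 21 from wild-type mice, from Clrn1-/- mice, from Clrn2-/- mice and from Clrn1-/-Clrn2-/- double mutants, with 3 libraries per genotype and 12 in all. Clrn1 and Clrn2 encode clarin-1 and clarin-2, paralogous membrane proteins needed for hearing. The Clrn1-/- allele is a constitutive deletion obtained from a floxed line with PGK-cre, the Clrn2-/- allele is the clarinet nonsense mutation, and the double mutants came from crossing both lines. No other treatment was applied to any group. Wild-type mice were bred separately and share no litter with the mutants, so litter or line of breeding cannot be told apart from genotype. The stria vascularis and the modiolus were removed at dissection. The paper counts mice as n in its figures and text, but for sequencing it says only that organs of Corti were taken in triplicate. Whether each library was a separate animal is not stated, and p-values measure the spread between these libraries, which may be technical.

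Caveolae are small flask-shaped pits of the plasma membrane, abundant in endothelial cells, fibroblasts, smooth muscle and adipocytes. Caveolins are hairpin proteins inserted into the inner leaflet, and cavins are cytoplasmic proteins that coat the pit. CAV1 and CAVIN1 are both needed to form caveolae outside striated muscle. CAV2 depends on CAV1 to reach the surface. CAVIN2 and CAVIN3 join CAVIN1 in the coat, EHD2 is an ATPase that holds the neck of the pit at the membrane, and PACSIN2 is an F-BAR protein that bends membrane and also serves other endocytic routes.

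Counts on genes ranged from 30008679 to 41049302 per library, and the 7 genes held between 976 and 7847 counts each in every library. The unit of level is CPM, a gene's count relative to its library's total after TMM scaling. Clrn1 lay between 1.77 and 3.04 CPM in the libraries that carry its deletion and between 23.8 and 31.5 CPM in the others. Clrn2 lay between 0.92 and 1.38 CPM in its own mutants and the double mutants, between 1.89 and 3.24 CPM in wild-type, and between 0.85 and 1.04 CPM in Clrn1-/- mice, whose Clrn2 gene is intact. The level of Clrn2 therefore separated wild-type from all mutants and not the Clrn2 alleles from each other. Hair cell markers summed to 1978 CPM or more in every library, and none of the 10 was at 0. Most of that sum was Calb2, which encodes calretinin, a protein the paper also used to mark a subtype of primary auditory neurons.

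In the double mutants both caveolins were higher than in wild-type, Cav1 by 1.61-fold and Cav2 by 1.51-fold, with Cavin2 close behind at 1.47-fold. In Clrn1-/- mice Cav1 alone showed a change of that size, at 1.46-fold. Cavin1, the core coat protein, lay 1.15- to 1.16-fold higher in each of the mutants, changes that no longer passed in any mutant without wild-type replicate 3, or in some of them without other libraries. Ehd2 did not pass the test in any comparison, and Pacsin2 rose in Clrn2-/- mice while its level in the double mutants lay within the wild-type range.

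Cav1 and Cav2 are neighbours on chromosome 6 and point the same way. In GRCm38, Cav2 (ENSMUSG00000000058.6) lies at chr6:17281185-17289115 and Cav1 (ENSMUSG00000007655.16) at chr6:17306335-17341452, both on the plus strand and 17219 bases apart. Cavin2 (ENSMUSG00000045954.7) lies at chr1:51289126-51302960 on the plus strand. The 250 bases before the RefSeq start site of these 3 genes are shown because they had the largest changes of the set in the double mutants, although in Clrn1-/- mice Cav1 changed more than the others. Where RefSeq gives several start sites, as for Cav1, the one at the annotated gene start was used. Sequences are from RefSeq on GRCm38.p6, on the plus strand, at chr6:17306085-17306334 for Cav1, chr6:17280935-17281184 for Cav2 and chr1:51288876-51289125 for Cavin2. Capitals mark matches, on either strand, to the GC box GGGCGG, the CCAAT box CCAAT, the TATA box TATAAA or the AP-1 site TGANTCA.
Cav1: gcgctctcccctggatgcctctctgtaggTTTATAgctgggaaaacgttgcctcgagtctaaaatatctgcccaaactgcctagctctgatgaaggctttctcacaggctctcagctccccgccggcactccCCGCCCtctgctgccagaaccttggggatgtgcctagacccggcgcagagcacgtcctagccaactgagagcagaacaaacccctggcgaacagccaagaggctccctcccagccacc
Cav2: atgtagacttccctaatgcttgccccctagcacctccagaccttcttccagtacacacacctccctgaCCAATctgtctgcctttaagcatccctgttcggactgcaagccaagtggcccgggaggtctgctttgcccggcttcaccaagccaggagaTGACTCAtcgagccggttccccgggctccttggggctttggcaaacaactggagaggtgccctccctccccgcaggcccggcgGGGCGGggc
Cavin2: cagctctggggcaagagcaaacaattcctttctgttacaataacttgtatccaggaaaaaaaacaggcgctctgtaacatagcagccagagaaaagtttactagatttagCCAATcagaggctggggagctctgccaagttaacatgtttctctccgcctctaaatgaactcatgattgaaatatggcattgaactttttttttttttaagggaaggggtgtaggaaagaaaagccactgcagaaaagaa

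The windows of Cav1 and Cav2 each hold a GC box, 118 and 9 bases before the start. Cav2 and Cavin2 each hold a CCAAT box, 182 and 140 bases before the start. The AP-1 site is in the window of Cav2, 92 bases before the start, and the letters of the TATA box are in that of Cav1, on the reverse strand and 221 bases before the start. No motif was in all 3 windows, and the window of the other RefSeq start site of Cav1, at chr6:17307390-17307639, held none of the 4. Of 32851 windows of the same length in the RefSeq table, 32.7% held the GC box, 33.8% the CCAAT box, 12.4% the TATA box and 6.75% the AP-1 site, so the AP-1 letters were the least common of the 4. Of the 7 genes, 6 had an entry in this table, and Cavin3 had none.

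The other genes lie elsewhere on the minus strand, Cavin1 (ENSMUSG00000004044.9) at chr11:100956733-100970887, Cavin3 (ENSMUSG00000037060.3) at chr7:105480083-105482300, Ehd2 (ENSMUSG00000074364.6) at chr7:15946958-15967567 and Pacsin2 (ENSMUSG00000016664.16) at chr15:83375607-83464606. All 7 genes are annotated as protein-coding, and the counts cover their exons. Cavin3 shares 374 exonic bases with Gm45667 on the opposite strand, which held at most 0.43 CPM. The counting used strand, so these reads were kept apart. A processed pseudogene, Gm5417, lies within an intron of Pacsin2 on the same strand and held between 0.83 and 1.60 CPM.

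**Figure D1:**
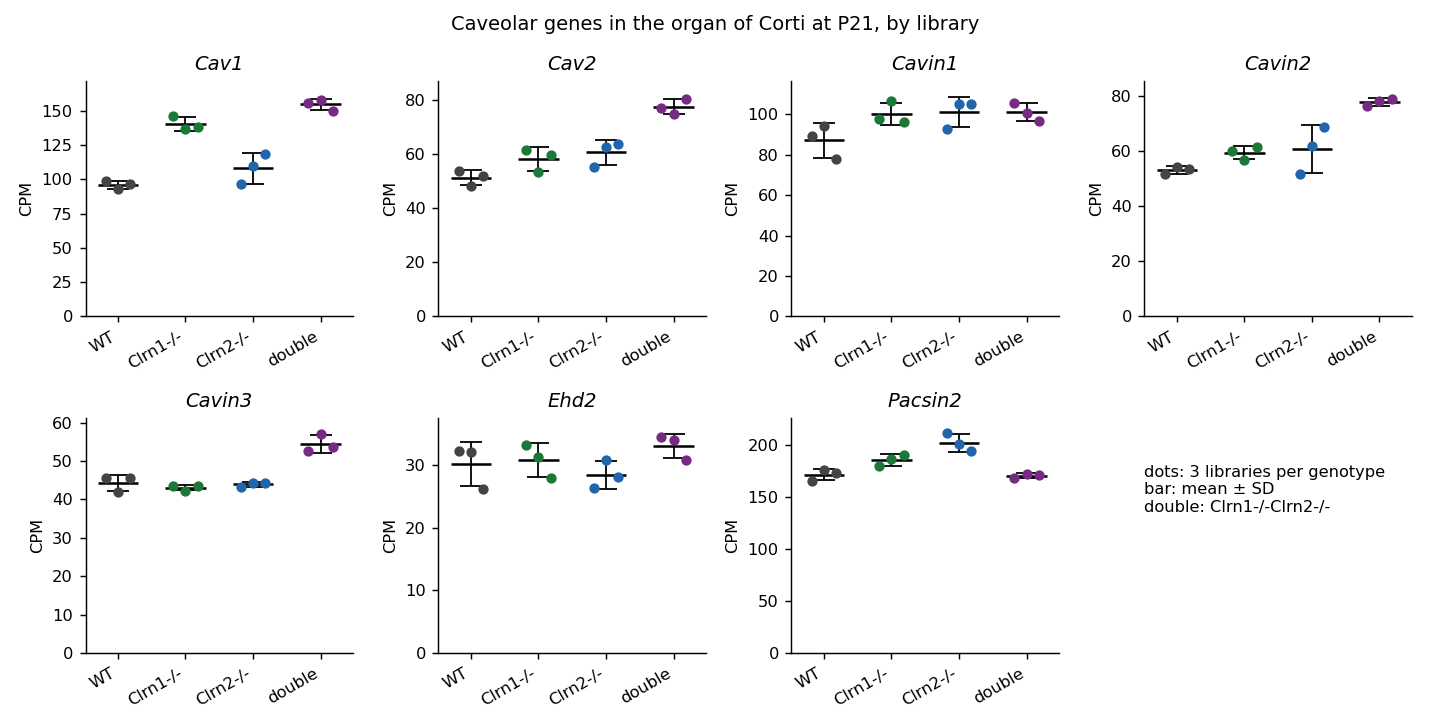
Level of each gene in CPM (linear axis from 0) in the 12 libraries. Dots are libraries, the long bar is the mean and the error bar the SD of 3 libraries per genotype. All double-mutant libraries of Cav1, Cav2, Cavin1, Cavin2 and Cavin3 sit above all wild-type libraries, and for Cavin1 the gap is small.

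Cav1, the principal caveolin of non-muscle cells, was measured at 98.9, 93.1 and 96.4 CPM in wild-type and at 155.9, 157.9 and 149.99 CPM in the double mutants. In Clrn1-/- mice it was at 146, 136 and 138 CPM, and in Clrn2-/- mice at 96.3, 109.5 and 119 CPM. The libraries of both genotypes that lack Clrn1 lay above all wild-type and all Clrn2-/- libraries, whereas 1 of the Clrn2-/- libraries lay within the wild-type range. Wild-type averaged 96.1 ± 2.94 CPM and the double mutants 155 ± 4.10 CPM, with 140.3 ± 5.07 CPM for Clrn1-/- and 108 ± 11.2 CPM for Clrn2-/- mice (SD, n = 3). The log2 fold change against wild-type, from edgeR's quasi-likelihood test, was 0.69 in the double mutants (SE 0.060, adjusted p = 2.8e-07) and 0.55 in Clrn1-/- mice (SE 0.060, adjusted p = 7.7e-06). In Clrn2-/- mice it was 0.17 and did not pass (edgeR, adjusted p = 0.073, 95% interval 0.042 to 0.30), although without Clrn2-/- replicate 1 it was 0.25 and passed (edgeR, adjusted p = 0.0028).

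The order of Cav1 levels was double mutants, Clrn1-/-, Clrn2-/- and wild-type. Neighbours at either end of this order did not differ beyond their spread by the test (edgeR, adjusted p = 0.087 for double mutants against Clrn1-/- and 0.073 for Clrn2-/- against wild-type), although the libraries of the first pair did not overlap. The middle step did, since Cav1 was 1.30-fold higher in Clrn1-/- than in Clrn2-/- mice (edgeR, adjusted p = 4.2e-04). It was also 1.43-fold higher in double mutants than in Clrn2-/- mice (edgeR, adjusted p = 1.5e-05).

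Cav2, the partner of CAV1, had another order. It was at 53.9, 48.3 and 52.1 CPM in wild-type, at 61.8, 53.4 and 59.9 CPM in Clrn1-/- mice, at 55.4, 62.9 and 63.9 CPM in Clrn2-/- mice and at 77.3, 75.0 and 80.6 CPM in double mutants. The double mutants lay above every other library, and the single mutants overlapped each other, with 1 Clrn1-/- library inside the wild-type range. The log2 fold change in the double mutants was 0.59 (SE 0.065, edgeR adjusted p = 2.8e-06). Against the single mutants Cav2 was 1.33-fold higher than in Clrn1-/- and 1.28-fold higher than in Clrn2-/- mice (edgeR, adjusted p = 1.4e-04 and 7.6e-04). In Clrn2-/- mice it rose by 0.24 on the log2 scale (edgeR, adjusted p = 0.022), a result lost without Clrn2-/- replicate 2 or 3 or wild-type replicate 2, with adjusted p from 0.0811 to 0.0895. In Clrn1-/- mice the change of 0.18 sat at the threshold (edgeR, adjusted p = 0.0499) and was lost when any of 8 of the 12 libraries was left out, which were Clrn1-/- replicates 1 and 3, Clrn2-/- replicate 2, double-mutant replicates 1, 2 and 3 and wild-type replicates 2 and 3, with adjusted p up to 0.18.

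Cavin1 was at 89.5, 94.3 and 77.7 CPM in wild-type, at 97.6, 106.6 and 96.4 CPM in Clrn1-/- mice, at 92.8, 105.3 and 105.3 CPM in Clrn2-/- mice and at 105.5, 100.8 and 96.6 CPM in double mutants. Wild-type replicate 3 was the lowest of all libraries, and the mutants did not differ from each other beyond their spread (edgeR, adjusted p from 0.92 to 0.98). Against wild-type the log2 changes were 0.20, 0.21 and 0.21 in Clrn1-/-, Clrn2-/- and double mutants (edgeR, adjusted p = 0.040, 0.048 and 0.023). Without wild-type replicate 3 they were 0.12, 0.14 and 0.12 and none passed (edgeR, adjusted p = 0.17, 0.16 and 0.15). In all, the Clrn1-/- change was lost without any of 5 libraries, the others being wild-type replicate 1, Clrn1-/- replicates 1 and 2 and double-mutant replicate 2. The Clrn2-/- change was lost without any of 9, which were all but wild-type replicate 2, Clrn1-/- replicate 2 and Clrn2-/- replicate 1. The double-mutant change was also lost without double-mutant replicate 1 or 2 (edgeR, adjusted p = 0.11 and 0.067).

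Cavin2, whose product shapes the coat of the pit, resembled Cav2. It was at 51.7, 54.2 and 53.7 CPM in wild-type, at 60.3, 56.9 and 61.4 CPM in Clrn1-/- mice, at 51.6, 62.1 and 68.8 CPM in Clrn2-/- mice and at 76.5, 78.5 and 79.1 CPM in double mutants. The double mutants were again above all other libraries, and the Clrn2-/- libraries were the most spread. The log2 change in double mutants was 0.55 (SE 0.073, edgeR adjusted p = 2.2e-05), and the double mutants lay 1.31-fold above Clrn1-/- and 1.28-fold above Clrn2-/- mice (edgeR, adjusted p = 6.9e-04 and 0.0018). The changes in the single mutants, 0.16 and 0.19, did not pass (edgeR, adjusted p = 0.12 and 0.097). Without Clrn2-/- replicate 1 both passed, at 0.16 and 0.30 (edgeR, adjusted p = 0.021 and 0.0013).

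Cavin3, a coat protein that binds CAV1 and CAVIN1, rose in the double mutants and did not pass the test in either single mutant. It was at 45.5, 41.97 and 45.4 CPM in wild-type, at 43.4, 42.3 and 43.6 CPM in Clrn1-/- mice, at 43.3, 44.2 and 44.3 CPM in Clrn2-/- mice and at 52.6, 57.0 and 53.6 CPM in double mutants. The single mutants lay inside the wild-type range and the double mutants wholly above it. The rise in double mutants was 1.23-fold (log2 0.30, SE 0.047, edgeR adjusted p = 1.1e-04), and it was 1.26-fold against Clrn1-/- and 1.24-fold against Clrn2-/- mice (edgeR, adjusted p = 5.1e-05 and 1.9e-04). In the single mutants the log2 difference had a 95% interval from -0.14 to 0.060 in Clrn1-/- and from -0.11 to 0.088 in Clrn2-/- mice.

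Ehd2 was at 32.2, 32.1 and 26.2 CPM in wild-type and at 34.4, 33.9 and 30.8 CPM in double mutants, with 27.9 to 33.2 CPM in Clrn1-/- and 26.3 to 30.7 CPM in Clrn2-/- mice. Each mutant overlapped wild-type, and the double mutants lay just above Clrn2-/- mice (log2 0.22, edgeR adjusted p = 0.069). The log2 change in double mutants was 0.13 with a 95% interval from -0.052 to 0.31 (edgeR, adjusted p = 0.26).

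Pacsin2 went another way. It was at 166, 176 and 173 CPM in wild-type, at 168, 172 and 171 CPM in double mutants, at 179, 187 and 190.4 CPM in Clrn1-/- mice and at 211, 201 and 194 CPM in Clrn2-/- mice. Both single mutants lay above all wild-type and all double-mutant libraries. The change passed in Clrn2-/- mice (log2 0.24, SE 0.042, edgeR adjusted p = 0.0013) and not in Clrn1-/- mice (log2 0.11, edgeR adjusted p = 0.057, 95% interval 0.024 to 0.20). The double mutants lay below Clrn2-/- mice by 0.25 on the log2 scale (edgeR, adjusted p = 4.9e-04). They lay below Clrn1-/- mice by 0.12 (edgeR, adjusted p = 0.038), a result lost without Clrn1-/- replicate 2 or 3 or double-mutant replicate 1, 2 or 3 (adjusted p up to 0.090). Against wild-type the difference was -0.01, with a 95% interval from -0.098 to 0.081.

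**Figure D2:**
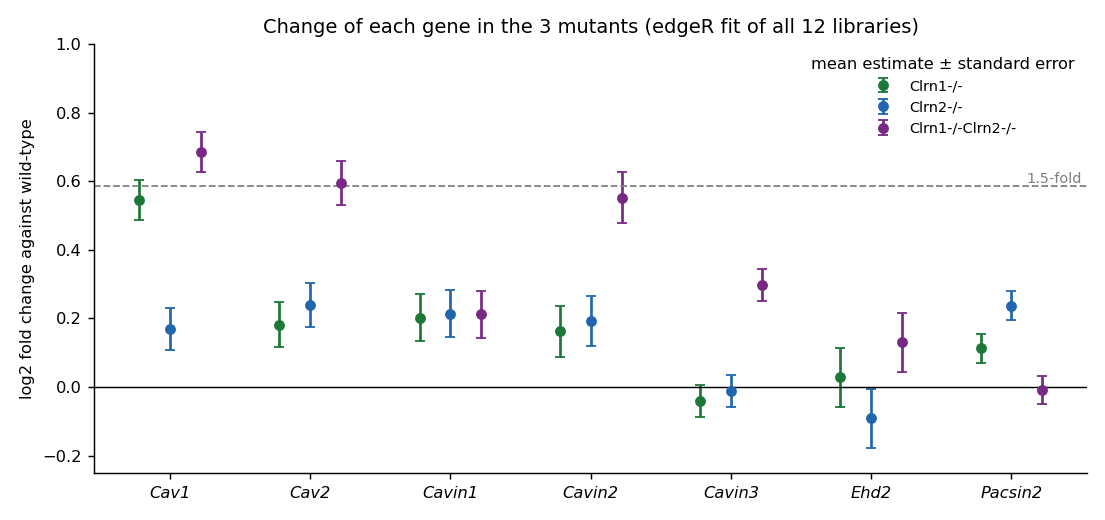
Log2 fold change of each gene against wild-type (y axis) in Clrn1-/-, Clrn2-/- and double mutants, as the edgeR estimate with its standard error. The dashed line marks 1.5-fold, which Cav1 (0.69) and Cav2 (0.59) exceed in double mutants and no gene exceeds in single mutants.

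Calls required an adjusted p no higher than 0.05 together with a change of 1.5-fold or more, in either direction. In double mutants against wild-type 2 of the 7 genes were called, Cav1 and Cav2, both higher, while 9.90% of all tested genes were called. Cav1 was called in 21 of 21 alternative analyses and Cav2 in 18, since the log2 change of Cav2 was 0.56 without double-mutant replicate 3, 0.54 without wild-type replicate 2 and 0.58 with no filter on low counts, each short of 1.5-fold. Neither single mutant had a call among the 7 genes, against 7.22% of all genes called in Clrn1-/- and 2.66% in Clrn2-/- mice. limma-voom and DESeq2 also gave 0 calls in both, and 5 of the 7 genes had an unadjusted p below 0.05 by edgeR in either mutant.

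By adjusted p alone, 5 of 7 genes passed in double mutants, where 37.0% of all genes did. In Clrn1-/- mice 3 passed (Cav1, Cav2 and Cavin1) against 26.9% of all genes, and in Clrn2-/- mice 3 passed (Cav2, Cavin1 and Pacsin2) against 14.2%. Each of these changes was upward. The libraries of mutant and wild-type did not overlap for 4 genes in Clrn1-/- (40.2% of all genes), 2 in Clrn2-/- (29.0%) and 5 in double mutants (48.2%), again with the mutants higher. The median log2 change of the 7 genes was 0.16, 0.19 and 0.30 in Clrn1-/-, Clrn2-/- and double mutants, and that of all genes tested was -0.0031, -0.0025 and 0.0010. The comparisons against wild-type share the same 3 wild-type libraries.

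Between the mutants no member reached 1.5-fold, where 7.23% of all genes were called for double mutants against Clrn1-/-, 5.10% against Clrn2-/- and 4.73% for Clrn1-/- against Clrn2-/- mice. limma-voom and DESeq2 gave 0 as well, and 5, 6 and 2 members had an unadjusted p below 0.05 by edgeR. By adjusted p alone 4 members passed against Clrn1-/- (30.4% of all genes), 5 against Clrn2-/- (27.6%) and 1 in Clrn1-/- against Clrn2-/- mice (18.5%), which was Cav1. In both comparisons of the double mutants with a single mutant, Cav2, Cavin2 and Cavin3 were higher and Pacsin2 was lower in the double mutants.

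Whether the double mutants departed from the sum of the single mutants on the log2 scale was tested as an interaction. Cavin3 lay above that sum by 0.35 (SE 0.066, edgeR adjusted p = 0.0020), and Pacsin2 lay below it by 0.36 (estimate -0.36, SE 0.059, edgeR adjusted p = 6.7e-04). Both are under 1.5-fold, so 0 members were called, by limma-voom and DESeq2 too, against 5.50% of all genes. By adjusted p alone 2 passed, as did 17.4% of all genes, and the same 2 had an unadjusted p below 0.05. For Cav1 the departure was -0.03, with a 95% interval from -0.21 to 0.15. Cav2 and Cavin2 lay above the sum by 0.17 and 0.20, Cavin1 below it at -0.20, and these did not pass (edgeR, adjusted p = 0.22, 0.22 and 0.17).

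**Figure D3:**
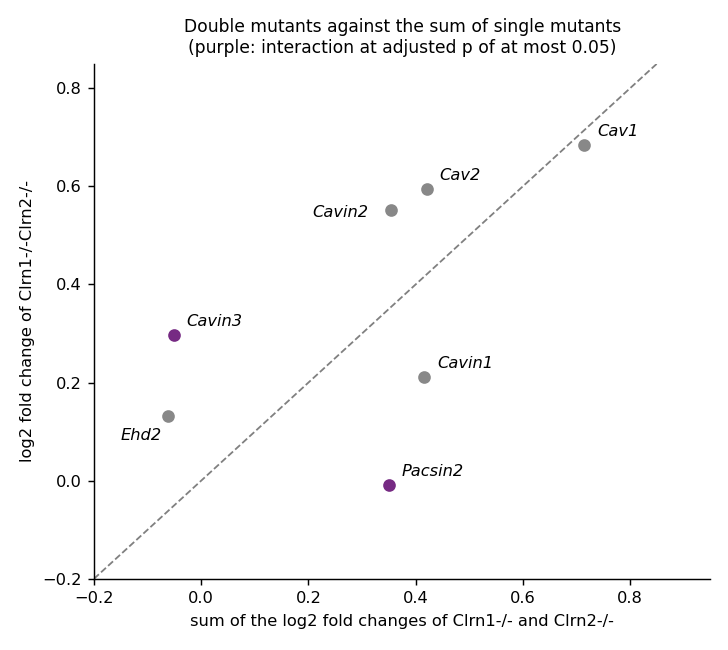
Log2 fold change of the double mutants against wild-type (y axis) and the sum of the single-mutant log2 fold changes (x axis). On the dashed line both are equal. Cavin3 (0.35 above) and Pacsin2 (0.36 below), in purple, are the genes whose interaction passed by adjusted p, and Cav1 sits close to the line (-0.03).

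Levels of different genes can be compared per length of exon. In wild-type, Pacsin2 had 34.9, Cav1 27.9, Cavin3 26.6, Cavin1 24.3, Cavin2 17.4, Cav2 15.4 and Ehd2 5.89 CPM per kb. In double mutants Cav1 came first with 44.9 CPM per kb, ahead of Pacsin2 with 34.7. Over the 12 libraries Cav1 and Pacsin2 lay at percentiles 93.1 and 93.4 among 18721 tested genes with a known length, and Ehd2 at 59.2. Cav3, the muscle caveolin, was at no more than 0.13 CPM in any library and was too low to be tested, and Cavin4, the muscle cavin, was at 0.11 to 0.44 CPM. Both were singled out as the remaining members of their families after their values were seen.

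The ratio of Cav1 to Cavin1 per length was 1.16 ± 0.13 in wild-type and 1.60 ± 0.050 in double mutants, and it was 1.46 ± 0.12 in Clrn1-/- and 1.11 ± 0.053 in Clrn2-/- mice (SD, n = 3). All libraries of Clrn1-/- and double mutants lay above all wild-type libraries. The ratio of Cav1 to Cav2 was 1.81 ± 0.048 in wild-type and 2.33 ± 0.13 in Clrn1-/- mice, without overlap, whereas the double mutants, at 1.93 ± 0.12, overlapped wild-type. The ratio of Cavin2 to Cavin1 was 0.72 ± 0.078 in wild-type and 0.91 ± 0.055 in double mutants, without overlap, and Clrn1-/- and Clrn2-/- mice overlapped wild-type at 0.70 and 0.70. The ratio of Cavin3 to Cavin1 was 1.11 in wild-type and overlapped it in each mutant, at 0.93, 0.94 and 1.16 in Clrn1-/-, Clrn2-/- and double mutants. That of Ehd2 to Cav1 was 0.21 in wild-type and 0.18 in Clrn2-/- mice, with overlap. It was lower without overlap in Clrn1-/- and double mutants, at 0.15 and 0.14. For each ratio without overlap a two-sided exact permutation test gave p = 0.1, the smallest that 3 against 3 libraries can give, so none can reach 0.05. A ratio shows that its genes did not change by the same factor and is unaffected by the scaling of a library, and the ratios were chosen after values were seen.

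**Figure D4:**
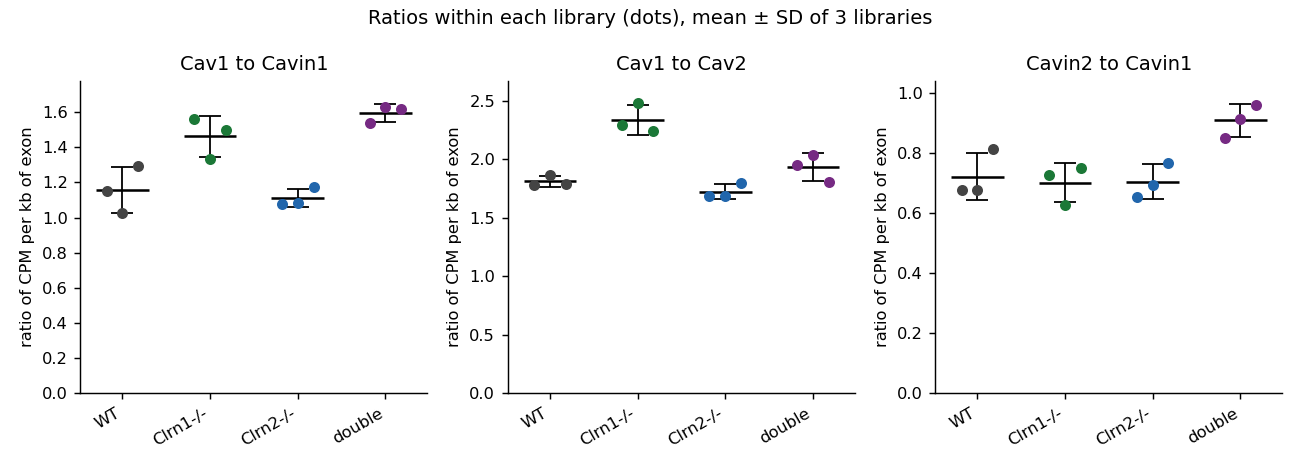
Ratios of CPM per kb of exon within each library (dots), with the mean and SD of 3 libraries per genotype, on linear axes from 0. Cav1 to Cavin1 is above wild-type in Clrn1-/- and double mutants (means 1.46 and 1.60 against 1.16), Cav1 to Cav2 in Clrn1-/- mice, and Cavin2 to Cavin1 in double mutants.

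Around the caveolin pair, the nearest protein-coding genes on either side were read as well. Tes, which encodes a focal adhesion protein, ends 175356 bases before Cav2. Beyond Cav1 come Met, the receptor of hepatocyte growth factor, after 122347 bases, and Capza2, an actin capping subunit. Tes was at 8.51 ± 0.72 CPM in wild-type and 14.5 ± 0.83 CPM in double mutants (log2 0.77, SE 0.091, edgeR adjusted p = 6.3e-06). Met was at 17.8 ± 0.88 and 29.4 ± 1.24 CPM (log2 0.73, SE 0.093, edgeR adjusted p = 1.6e-05). Both were called in double mutants, as Cav2 and Cav1 were, so 4 consecutive protein-coding genes were higher there, where 9.90% of all genes were called. Capza2 differed by 0.02 and did not pass. Tfec, on the far side of Tes, was under 0.3 CPM and was not tested.

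The 4 genes did not share 1 pattern over the single mutants. In Clrn1-/- mice Met rose by 0.42 on the log2 scale (edgeR, adjusted p = 0.0037), as Cav1 did by 0.55, whereas Tes was at -0.07 and did not pass. In Clrn2-/- mice Met rose by 0.32 (edgeR, adjusted p = 0.033). Tes in double mutants exceeded the sum of the single mutants by 0.70 (SE 0.13, edgeR adjusted p = 0.0018), and Cav1 did not exceed it. The calls of Tes and Met in double mutants held in 21 of 21 alternative analyses.

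**Figure D5:**
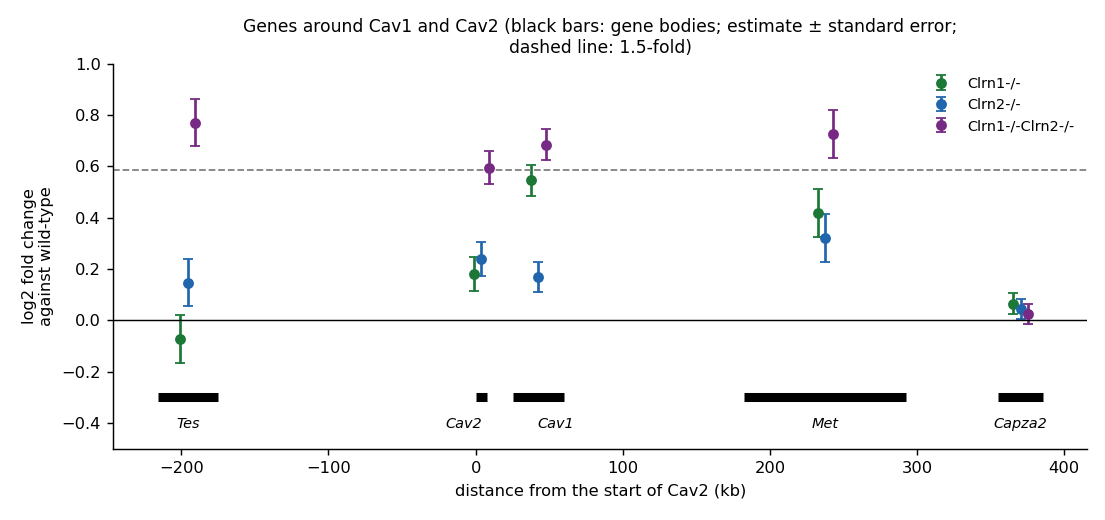
Log2 fold change against wild-type (y axis, edgeR estimate with standard error) of the genes around Cav1 and Cav2, by distance from the start of Cav2 in kb (x axis), with gene bodies as black bars. In double mutants Tes, Cav2, Cav1 and Met lie above the dashed 1.5-fold line and Capza2 lies near 0 (0.02).

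Other genes linked to caveolae, or related to the members, were read from a list of 20, of which 19 could be tested. In double mutants 0 of 19 were called by edgeR, limma-voom or DESeq2, with 7 at an unadjusted p below 0.05 by edgeR. By adjusted p alone 2 were higher and 3 were lower, where 37.0% of all genes passed, and the median log2 change was 0.01. The higher ones were Flna, which encodes filamin A, an actin crosslinker that binds CAV1, at 0.47, and the kinase Yes1 at 0.27. The lower ones were Pacsin1 at -0.54, the dynamin gene Dnm1 at -0.54 and Dnm3 at -0.22. Pacsin1 is the neuronal relative of Pacsin2 and Dnm1 the dynamin of synaptic vesicle recycling. These 5 were named after their values were seen. In Clrn1-/- mice 1 of 19 was called, Plvap, which encodes the diaphragm protein of endothelial pits, at 5.75 ± 1.59 CPM in wild-type and 8.65 ± 0.54 CPM in the mutants (log2 0.59, edgeR adjusted p = 0.0060). Its fold change fell under 1.5 without Clrn1-/- replicate 3 or wild-type replicate 1 or 3, where the log2 change went down to 0.43. By adjusted p alone 4 were higher and 3 lower in Clrn1-/- mice, where 26.9% of all genes passed. In Clrn2-/- mice, where 14.2% of all genes passed, 1 was higher and 5 were lower. These mice had 0 calls by the 3 tools and 8 genes at an unadjusted p below 0.05 by edgeR.

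Genes of the clathrin coat, the other large endocytic coat, served as a contrast, with 20 genes tested. None was called against wild-type in any mutant by edgeR, limma-voom or DESeq2, with 12 at an unadjusted p below 0.05 by edgeR in double mutants, 5 in Clrn1-/- and 9 in Clrn2-/- mice. By adjusted p alone 2 were higher and 8 lower in double mutants, 1 higher and 4 lower in Clrn1-/- mice, and 0 higher and 4 lower in Clrn2-/- mice. Of all genes 37.0%, 26.9% and 14.2% passed in these mutants, in the same order. The median log2 change was -0.10 in double mutants, where that of the 7 caveolar genes was 0.30.

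The organ of Corti holds several cell types, and in bulk RNA fewer cells of a type and less RNA per cell cannot be told apart. Of 12 endothelial markers none was called against wild-type in any mutant by edgeR, limma-voom or DESeq2, with 7, 5 and 4 at an unadjusted p below 0.05 by edgeR in Clrn1-/-, Clrn2-/- and double mutants, and their summed level was 412 to 475 CPM in wild-type and 458 to 467 CPM in double mutants, inside the wild-type range. The 10 pericyte and smooth muscle markers summed to 365 to 419 CPM in wild-type and 381 to 384 CPM in double mutants, again inside, and to 327 to 383 and 300 to 308 CPM in Clrn1-/- and Clrn2-/- mice. The 8 adipocyte markers summed to no more than 51.7 CPM in any library, and in every genotype Lep, Cfd or both were at 0 in all libraries. The sums hold members that went both ways in double mutants. Emcn, an endothelial sialomucin, rose from 67.8 to 101.5 CPM (1.496-fold, edgeR adjusted p = 1.7e-05) and Flt1, a VEGF receptor, fell by 0.24 on the log2 scale (edgeR, adjusted p = 0.027), with a median log2 change of -0.10 over the endothelial list. Of the pericyte and smooth muscle markers Abcc9 rose by 0.45, and Acta2, Myh11 and Rgs5 fell (log2 -0.34, -0.40 and -0.19), with a median of -0.04. In the interaction, where Cavin3 passed, 5 of 10 pericyte and smooth muscle markers were called above the sum of the single mutants, against 5.50% of all genes called in either direction. Of 12 endothelial markers 1 was called (Emcn), and by adjusted p alone 3 lay above the sum (Emcn, Eng and Tek) and Cldn5 lay below it at -0.51. The part of these markers in the results was not tested.

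Markers of other cell types did move. Of all genes 7.22%, 2.66% and 9.90% were called in Clrn1-/-, Clrn2-/- and double mutants, and 37.0% passed by adjusted p alone in double mutants. The 10 fibroblast markers summed to 1712 to 2087 CPM in wild-type and 2487 to 2669 CPM in double mutants, with 2 called higher and 1 lower. They summed to 2169 to 2384 CPM in Clrn1-/- mice, above wild-type, and to 1935 to 2226 CPM in Clrn2-/- mice. The 10 supporting cell markers summed to 1740 to 1918 CPM in wild-type and 2606 to 2838 CPM in double mutants, where 4 were called higher and 1 lower, and to 1790 to 2042 and 1758 to 2117 CPM in Clrn1-/- and Clrn2-/- mice. The 8 macrophage markers summed to 137 to 175 CPM in wild-type, 213 to 228 in Clrn1-/- and 216 to 254 CPM in double mutants. Neuron markers summed to 11980 to 13130 CPM in wild-type and 8277 to 8421 CPM in double mutants. The sum of the 10 hair cell markers was 2974 to 3425 CPM in wild-type and 1978 to 2183 CPM in double mutants, and most of it was Calb2, which averaged 2806 and 1692 CPM. Of these markers 3 were lower (Calb2, Gfi1 and Chrna10) and 3 higher (Ocm, Slc26a5 and Pou4f3) by adjusted p alone, with a median log2 change of 0.12, so the sum does not describe the list. All 5 red blood cell markers were called lower in both single mutants and 2 in double mutants. Of 10 skeletal muscle markers 1 was called lower in double mutants and 1 higher in Clrn1-/- mice, of 7 bone markers tested 1 was called in each direction in double mutants, and of 8 Schwann cell markers none was called against wild-type by edgeR, limma-voom or DESeq2, with 6, 1 and 5 at an unadjusted p below 0.05 by edgeR in Clrn1-/-, Clrn2-/- and double mutants. No marker of the fibroblast, supporting cell, macrophage, neuron or hair cell lists was at 0 across a genotype, and their part in the caveolar results was not tested.

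Over the 12 libraries the genes whose log2 CPM was most like that of Cav1, among 12453 genes that averaged 5 CPM or more, were Lrrc8b (Pearson's r = 0.98), Fzd1 (0.98), Moxd1 (0.98), Rarres2 (0.97) and Abca1 (0.97). Those most like Cavin1 were Plat (0.95), Lrrc58 (0.94), Ccdc8 (0.92), Wnt6 (0.91) and Flnc (0.91). Neither list holds another member of the set. Among the members the closest pair was Cav2 and Cavin2 (0.95), followed by Cav2 and Cavin3 (0.84), while Cav1 and Cavin1 reached 0.57 and Cavin1 and Cavin3 0.13. These values include the differences between genotypes. Within genotypes, after the genotype means were removed, the order was another, with Cav1 and Cavin2 (0.83) ahead of Cavin1 and Ehd2 (0.78), Cav1 and Cav2 (0.72), Cav2 and Cavin2 (0.65) and Cav2 and Cavin3 (0.43), and Cav1 and Pacsin2 at -0.86. The correlations describe 12 points that share genotype, library and scaling, and carry no test. Within genotypes the likeness to Cav1 was 0.91 for Lrrc8b, 0.73 for Fzd1, 0.90 for Moxd1, 0.80 for Rarres2 and 0.48 for Abca1. Abca1, the cholesterol exporter, rose on the log2 scale by 1.00 in double mutants, by 0.81 in Clrn1-/- and by 0.35 in Clrn2-/- mice. It was picked for its likeness to Cav1 over these same libraries. A test of its changes would not be independent of that choice, and none is given.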

How the data were processed

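RNA of the organ of Corti from 12 libraries, 3 per genotype, was sequenced as poly(A)-selected, strand-specific paired reads. The deposited files hold raw counts per gene and library, made by the authors by aligning and counting with STAR (GRCm38.p6, Gencode M24). The reverse-strand column, which held 95.2% to 95.5% of stranded counts, was used, and reads not assigned to a gene (13.5% to 15.8% of the total) were left out. Coordinates and exon lengths are from Gencode M21 of the same build. Such counts give relative levels, so a large rise in some genes lowers the rest.

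The count test was the quasi-likelihood test of edgeR 4.0.16 (R 4.3.3), on genes that passed filterByExpr (minimum count 10), with TMM scaling, fitted over all 12 libraries with genotype alone. P-values were adjusted by Benjamini-Hochberg over all 19052 genes. Calls needed an adjusted p no higher than 0.05 and 1.5-fold. Standard errors and 95% intervals were derived from the test statistic. CPM values are counts divided by the scaled library size. The fit was tested on simulated data. Alternatives were limma-voom (limma 3.58.1), DESeq2 1.42.0, library size or DESeq2 size factors as scaling, 2 other filters, the genotypes compared only, a replicate block, unstranded counts, adjusted p alone, and each library left out. Libraries of 1 genotype differed by 4.13 to 17.4 times counting noise, so none was a duplicate. Deviations of libraries with equal replicate numbers correlated above 0.1 in 7 of 18 pairs, and in all 3 only between wild-type and Clrn1-/-.

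All 7 members are named whatever their values, as are the 5 genes most like Cav1 and Cavin1 and the nearest 2 protein-coding genes on each side of the Cav1 and Cav2 pair. Of the related list, genes called in double mutants were to be named. The members and lists were chosen with earlier results of these data known. Averaged over genes, the spread between libraries exceeded counting error, but this does not hold for every member. For Cavin3 in Clrn2-/- mice the SD was 1.32% of the mean, on 1444 to 1609 counts, which is no more than counting error.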

Additional observations from a re-analysis of the deposited data

Results flagged for a closer look

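The effect of losing both clarin genes differed from the sum of the single effects for 2 genes, by a test of the difference itself. For Cavin3 the interaction was 0.35 on the log2 scale, with a rise in double mutants (54.4 ± 2.35 CPM against 44.3 ± 2.01 CPM in wild-type, SD, n = 3) and levels of 43.1 ± 0.71 and 43.9 ± 0.58 CPM in Clrn1-/- and Clrn2-/- mice. For Pacsin2 the interaction was -0.36, with 185 ± 5.57 and 202 ± 8.58 CPM in the single mutants and 170.5 ± 2.27 CPM in double mutants, beside 171 ± 5.14 CPM in wild-type. Both passed in 20 of 20 alternative analyses by adjusted p.

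Counts on the strand opposite to Cavin1, which entered no comparison, lay above the wild-type range of 1.83 to 2.36 CPM in every library of 2 genotypes. The mean was 2.75 ± 0.48 CPM in Clrn1-/- mice and 3.43 ± 0.53 CPM in double mutants (SD, n = 3), against 2.07 ± 0.27 CPM in wild-type and 2.39 ± 0.56 CPM in Clrn2-/- mice. The other 6 genes had at most 0.72 CPM on the opposite strand in any library. Of these, Cav1, Cav2 and Cavin2 also lay above wild-type in every Clrn1-/- and double-mutant library, while Cavin3, Ehd2 and Pacsin2 overlapped it. For Cavin2, wild-type had at most 0.056 CPM and these mutants at least 0.12 CPM. The reverse-strand share was 95.43% in the lowest wild-type library and 95.37% in the highest library of these mutants. No gene of Gencode M21 overlaps Cavin1, and none of these differences was tested.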

How the results depend on the processing

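In double mutants against wild-type 2 members were called, and 1 (Cav1) with no filter on low counts. With 1 library left out the count ranged from 1 to 2, the call of Cav2 being lost without double-mutant replicate 3 or wild-type replicate 2, where its fold change fell just under 1.5. Scaling by library size alone gave 1 call in Clrn1-/- mice (Cav1). By adjusted p alone the counts were 3 in Clrn1-/-, 3 in Clrn2-/-, 5 in double mutants, 4 and 5 in double mutants against Clrn1-/- and Clrn2-/-, 1 in Clrn1-/- against Clrn2-/- mice and 2 for the interaction. With the replicate block, a paired analysis by replicate number, the count in double mutants was 2 and no count of calls changed. The block moved 1 member over the adjusted p threshold, Ehd2 in double mutants against Clrn2-/- (log2 0.22, edgeR adjusted p = 0.027). Replicate numbers name a shared animal or batch in no label. Deviations of libraries with equal numbers correlated from -0.28 to 0.30. Libraries with unequal numbers were not compared, so these values cannot show whether the numbers pair libraries.

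Small differences that passed in no analysis changed sign. With library size alone the log2 change was 0.0047 for Cavin3 in Clrn1-/-, 0.023 for Cavin3 in Clrn2-/-, 0.033 for Pacsin2 in double mutants and 0.0046 for Cavin1 in double mutants against Clrn2-/-. With unstranded counts it was 0.0069 for Cavin1 in double mutants against Clrn2-/- and 0.013 for Cavin3 in Clrn1-/- against Clrn2-/-. With 1 library left out, against wild-type, Ehd2 in Clrn1-/- ranged from -0.067 to 0.099, Cavin3 in Clrn2-/- from -0.045 to 0.012 and Pacsin2 in double mutants from -0.039 to 0.0017. Cavin1 in double mutants ranged from -0.032 to 0.046 against Clrn1-/- and from -0.067 to 0.019 against Clrn2-/-. In Clrn1-/- against Clrn2-/-, Cav2 ranged from -0.13 to 0.0023, Cavin1 from -0.083 to 0.020 and Cavin2 from -0.15 to 0.064, and the interaction of Cav1 from -0.11 to 0.022. The cause was not tested. The changes of Cav1, Cav2, Cavin2 and Cavin3 in double mutants against wild-type passed by adjusted p in 21 of 21 alternatives. With 3 libraries per genotype, the changes of Cav2 and Cavin1 near 0.2 on the log2 scale in single mutants were lost without single libraries, whereas that of Pacsin2 in Clrn2-/- mice (0.24) was not.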
